A study of Marchantia polymorpha with 6 samples.

Results

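TE_00001068 is a family of Gypsy elements in the transposable element annotation of the liverwort Marchantia polymorpha, and its homology copies are the stretches of the genome that the annotation matched to the family's library entry. Members were chosen by their labels in that annotation: class LTR, superfamily Gypsy, family identifier TE_00001068, a copy identifier beginning with TE_homo, and a place on chromosomes 1 to 8, the autosomes. The rule returned 4116 of the 89262 annotated element copies. They made up 17.3% of the 23784 Gypsy homology copies on the autosomes and, once overlaps were merged, 5.76 Mb (25.6%) of the 22.5 Mb that those copies covered. The next most numerous Gypsy family had 1856 copies. Copy number on the autosomes is part of the choice and is given as a description only. The same rule gave 499 copies on chromosome V, the male sex chromosome, which are used for comparison.

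The series sequenced poly(A) RNA from thalli, the flat plant body, at 14 days, from 3 libraries of Mpmet-3, a mutant of the CG methyltransferase gene MpMET, and 3 libraries of Tak-1 wild type, a male strain. Its stated aim was to follow gene and element expression after loss of MpMET. The data used here were the gene and element annotations of assembly MpTak1 v5.1 (revision 2), whose positions serve for both genotypes. Neither holds a value of a library, so expression, depth per library and the difference between Mpmet-3 and wild type were not analysed here.

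Gypsy elements are LTR retrotransposons, which copy themselves through an RNA intermediate that is reverse transcribed and inserted elsewhere in the genome. An intact element has an inner part that codes for the capsid protein and the enzymes of copying, between a pair of long terminal repeats (LTRs) that carry the promoter and the signal that ends the transcript. In plants such elements are commonly silenced by DNA methylation, and MET enzymes maintain methylation at CG sites when DNA is replicated. An annotation pipeline such as EDTA keeps LTR and inner-part entries separately in its library, so a single element can appear as several neighbouring copies.

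All 4116 copies matched an entry that the library lists as a terminal repeat, TE_00001068_LTR, and the family had 0 copies of an inner-part entry. Of the copies, 2098 lay on the plus strand and 2018 on the minus strand. On single autosomes the share on the plus strand lay between 45.1% and 55.5%, and on V it was 48.7%. The family thus had no common orientation along a chromosome.

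Copy length fell into a pair of sharp classes. The copies ran from 80 to 4054 bp, with a median of 806 bp, quartiles of 715 and 2112 bp and a mean of 1400 ± 1105 bp (SD over copies). Lengths of 700 to 850 bp held 1302 copies (31.6%), and lengths of 3200 to 3500 bp held 700 (17.0%). Within the shorter class the lengths crowded onto a few bases: 169 copies were 806 bp long and 141 were 805 bp long, and 519 copies (12.6% of the family) lay within 5 bp of the commonest length. Within the longer class the commonest length was 3331 bp, with 45 copies, and 155 copies lay within 5 bp of it. The remainder were 1016 copies under 700 bp, 1051 copies between 850 and 3200 bp and 47 copies over 3500 bp. These class limits were set after the lengths had been seen, so the classes are a description.

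The same lengths recurred on every autosome. The share of 700 to 850 bp copies was 31.8% ± 1.23 (SD, n = 8 chromosomes; 30.8% to 34.4%), and the share of 3200 to 3500 bp copies was 17.3% ± 1.74 (14.3% to 19.6%). On V these classes held 128 (25.7%) and 68 (13.6%) of the 499 copies, both below the lowest autosome, while 145 V copies (29.1%) were under 700 bp. The median length was 806 bp on V and on 7 autosomes, and 805 bp on chromosome 2.

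**Figure D1:**
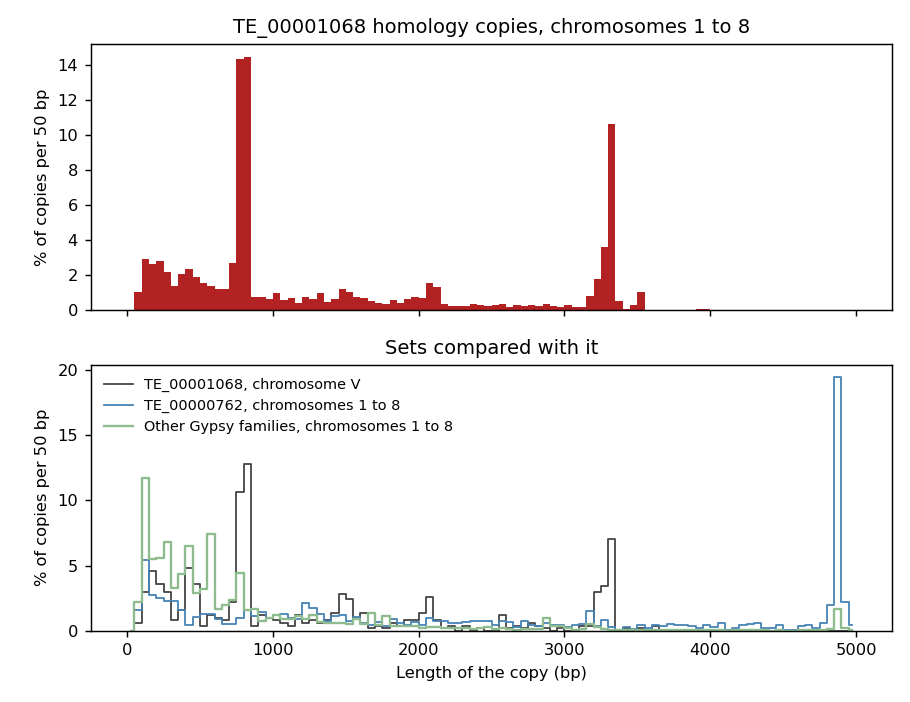
Share of copies (%, y axis) by copy length (bp, x axis, 50 bp bins) for TE_00001068 on chromosomes 1 to 8, the other Gypsy families on chromosomes 1 to 8, TE_00000762 on chromosomes 1 to 8, and TE_00001068 on V. TE_00001068 has narrow peaks near 806 and 3331 bp on the autosomes and on V, TE_00000762 has a peak in the bin from 4850 bp, and other Gypsy copies lie mostly below 700 bp.

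The family was set against the other Gypsy homology copies of the autosomes (19668 copies of 66 families) and against TE_00000762 alone, a Gypsy family with 1666 copies that is also among those 66. Copies on a chromosome are not independent, so each set gave 1 value per autosome and the paired differences were tested with an exact 2-sided sign-flip permutation over 8 chromosomes. The smallest p this test can give is 0.0078, and p-values were adjusted by the Benjamini-Hochberg method over 14 such tests. The median length of TE_00001068 copies was 806 ± 0.354 bp, against 521 ± 19.5 bp for other Gypsy copies (SD, n = 8 chromosomes), and was higher on 8 of 8 chromosomes (exact permutation, adjusted p = 0.0137). It was lower than that of TE_00000762, 2063 ± 321 bp, on 8 of 8 chromosomes (exact permutation, adjusted p = 0.0137). In the classes drawn from TE_00001068 lengths, 8.41% of other Gypsy copies and 3.06% of TE_00000762 copies lay between 700 and 850 bp. Between 3200 and 3500 bp lay 0.620% and 1.98%. TE_00000762 had a sharp peak of its own elsewhere, with 19.4% of its copies in the 50 bp bin from 4850 bp. The fullest such bin of TE_00001068, from 800 bp, held 14.5%, so a sharp length peak was not particular to this family.

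Both length classes of TE_00001068 recurred in a fixed order along the strand. Of the 700 copies of 3200 to 3500 bp, 557 (79.6%) had another copy of the family on the same strand with its nearer end 600 to 800 bp off their 5′ end, and in 501 of these (89.9%) that first copy belonged to the 700 to 850 bp class. The gap between them had a median of 694 bp, was exactly 694 bp in 163 cases, and lay between 690 and 719 bp from its 10th to its 90th percentile. The whole arrangement, from the outer end of the first copy to the outer end of the second, had a median span of 4808 bp. The median gap was 694 bp on all 8 autosomes and on V.

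Within the gap itself, inner-part entries on the opposite strand were counted, and those on the same strand were not. At the 5′ end of the 700 longer copies, the same-strand entries TE_00000594_INT and TE_00001203_INT were found in 53 (7.57%) and 32 (4.57%). Copies of inner-part entries of other families on the opposite strand were annotated in the gap in 554 of the 557 arrangements (99.5%). TE_00000885_INT, an inner-part entry of an LTR family with no superfamily, was present in 529 (95.0%). TE_00000514_INT, a Gypsy inner-part entry with a median length of 132 bp, was present in 397 (71.3%). The Gypsy inner-part entries TE_00000943_INT and TE_00001040_INT, of median length 569 and 554 bp, were present in 322 (57.8%) and 82 (14.7%). Around the longer copies, on either strand, TE_00000885_INT shared positions with the other entries. At −650 bp from the 5′ end it was annotated for 76.7% of these copies and TE_00000514_INT for 66%. TE_00000943_INT or TE_00001040_INT was annotated there for 2.14%. At −500 bp the shares were 82.6%, 2.57% and 64.4%, in that order. TE_00000514_INT thus lay mostly nearer the first copy, and TE_00000943_INT or TE_00001040_INT nearer the longer copy.

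A further piece followed the longer copy. TE_00000846_LTR, a terminal-repeat entry of an LTR family with no superfamily and a median length of 577 bp, was annotated on the same strand within 100 bp of the 3′ end of 686 of the 700 copies of 3200 to 3500 bp (98.0%). The pieces were found together in 494 of the 557 arrangements: a first copy of 700 to 850 bp, an opposite inner-part entry, a copy of 3200 to 3500 bp and TE_00000846_LTR, in that order from 5′ to 3′. The criteria were drawn up after the gaps had been seen, so these counts describe the annotation and were not tested. No inner-part entry carried the family's own identifier, and what the arrangement corresponds to in the sequence was not tested.

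**Figure D2:**
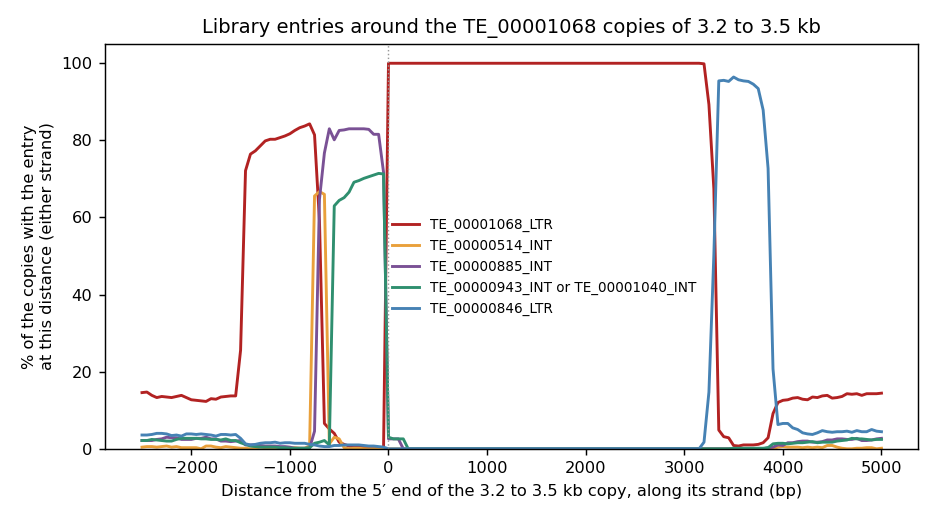
Share of the 700 TE_00001068 copies of 3200 to 3500 bp with each library entry on either strand (%, y axis) by distance from the copy's 5′ end along its strand (bp, x axis). Most have a further TE_00001068 copy upstream beyond a gap of about 694 bp, inner-part entries in that gap, and TE_00000846_LTR just past the 3′ end.

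The arrangement was spread over the genome at similar frequency among the longer copies. It was found for 79.6% ± 2.58 of the 3200 to 3500 bp copies per autosome (SD, n = 8; 74.2% to 82.4%) and for 57 of 68 (83.8%) on V. Its density was 2.72 ± 0.760 per Mb on autosomes and 7.56 per Mb on V. In all, 1113 autosomal copies (27.0% of the family) belonged to such an arrangement. Successive arrangements on the same strand were seldom in tandem: their median separation was 269 kb on the autosomes, and 26 of 541 intervals (4.81%) were within 10 kb.

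What lay at the 3′ end of a copy differed by length class. TE_00000846_LTR lay on the same strand at the 3′ end of all 47 copies over 3500 bp and of 771 of the 1051 copies between 850 and 3200 bp (73.4%), but of only 43 of the 1302 copies of 700 to 850 bp (3.30%). Instead, 1189 copies of 700 to 850 bp (91.3%) had an inner-part entry of another family on the opposite strand there. Among copies under 700 bp, 286 (28.1%) ended at TE_00000846_LTR and 245 (24.1%) at an opposite inner-part entry. Over the family 3275 copies (79.6%) ended in either of these ways, with 79.8% ± 1.01 per autosome (SD, n = 8) and 77.8% on V. The remaining 841 autosomal copies had neither. The 5′ end was less uniform: 3323 copies (80.7%) had some element within 100 bp of it, against 3979 (96.7%) at the 3′ end.

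At the 5′ end of the 700 to 850 bp copies no entry dominated. Counted by entry and strand, the commonest was TE_00000770_INT, a Gypsy inner-part entry on the same strand, in 119 copies (9.14%), typically 3 bp away. The next was another TE_00001068 copy on the opposite strand, in 116 copies (8.91%). A further TE_00001068 copy on the same strand lay there in 59 copies (4.53%), so the ranking depends on counting the strands separately.

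The same adjacency can be counted from the other entries. Of 1081 autosomal copies of TE_00000514_INT, 1018 (94.2%) lay within 100 bp of a TE_00001068 copy, as did 1357 of 1654 copies of TE_00000885_INT (82.0%) and 1966 of 2767 copies of TE_00000846_LTR (71.1%). For TE_00000943_INT the count was 565 of 1017 (55.6%) and for TE_00001040_INT 117 of 265 (44.2%). The last pair of entries thus also lay away from the family in about as many cases as beside it.

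Along a chromosome, copies of TE_00001068 commonly lay within 1 kb of each other. Of 4108 gaps between consecutive copies, 1635 (39.8%) were at most 1 kb, and the median gap was 2002 bp. The gaps of 600 to 800 bp alone numbered 766 (18.6%), and in 96.2% of them both copies lay on the same strand. Same-strand shares were 56.1% for the 305 gaps up to 100 bp, 75.0% for the 484 gaps above 100 and below 600 bp, and 60.0% for the 80 gaps above 800 and up to 1000 bp. Beyond 1 kb the share was 61.3% at 1 to 10 kb, 53.2% at 10 to 100 kb and 51.3% above 100 kb. It was thus highest at 600 to 800 bp, not among the closest pairs. The peak of same-strand pairs at 600 to 800 bp includes the arrangement described above, whose gap was defined by that range.

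**Figure D3:**
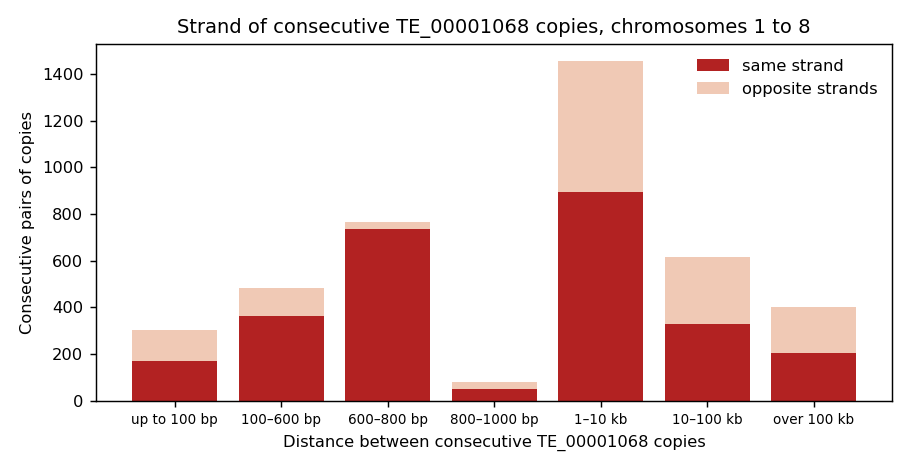
Number of consecutive TE_00001068 copy pairs on chromosomes 1 to 8 (y axis) by the gap between them (x axis, classes in bp and kb), with same-strand pairs in the dark part of each bar and opposite-strand pairs in the pale part. The 600 to 800 bp class holds 766 pairs, of which 96.2% are on the same strand, and pairs more than 100 kb apart are at 51.3%.

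Grouping copies no more than 1 kb apart on either strand gave 2481 runs on the autosomes. Single copies made up 1386 runs (33.7% of copies), 763 runs had 2 copies (37.1% of copies), and 332 runs had at least 3 and together held 1204 copies (29.3%). The run with most copies had 9, 6 on the plus and 3 on the minus strand, on chromosome 6 from 6981165 to 6997870. It lay in a gap between genes of 241 kb, 144 kb from Mp6g06420 on the left and 80.0 kb from Mp6g06460 on the right, and 97.0% of its span was annotated as element, the family included, whose copies made up 12402 of its 16706 bp.

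Runs of 7 copies came next, the 4 with the greatest span being named here. On chromosome 5 (414223 to 428390) a run lay between Mp5g00240 and Mp5g00250, 98.3 and 10.5 kb away. On chromosome 4 (19012144 to 19023972) a run lay 29.4 kb from Mp4g16740 and 4.28 kb from Mp4g16750. On chromosome 7 (2928128 to 2939261) all 7 copies were on the plus strand, 24.1 kb from Mp7g02420 and 3.82 kb from Mp7g02430. The run on chromosome 8 (5550675 to 5561007) lay 38.0 kb from Mp8g04970 and 70.9 kb from Mp8g04990. Element cover of these 4 spans, the family included, was 97.3% to 100%. The family itself made up 11023 of 14168 bp on chromosome 5, 8905 of 11829 bp on chromosome 4, 8813 of 11134 bp on chromosome 7 and 8192 of 10333 bp on chromosome 8. On V, 342 runs had at most 6 copies. Single copies made up 44.7% of the V copies and runs of at least 3 held 17.6%, against 33.7% and 29.3% on the autosomes.

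Pairs of copies within 1 kb lay on the same strand more often in TE_00001068 than in TE_00000762. The share was 81.0% ± 2.35, against 73.5% ± 4.82 in TE_00000762 (SD, n = 8 chromosomes), higher on 8 of 8 chromosomes (exact permutation, adjusted p = 0.0137). When only pairs within 100 bp were counted, the difference turned round to −18.4 percentage points (exact permutation, adjusted p = 0.0219), a limit that leaves out all gaps of 600 to 800 bp. Against other Gypsy families, at 83.1% ± 2.03, the difference of −2.12 percentage points did not pass the test (exact permutation, adjusted p = 0.179). It passed for pairs within 100 bp, at −27.4 (exact permutation, adjusted p = 0.0137), and without chromosome 8, at −3.28 (exact permutation, adjusted p = 0.0243). It turned round to 3.80 when only terminal-repeat entries were compared (exact permutation, adjusted p = 0.0438).

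The nearest other element of a TE_00001068 copy was a copy of the same family in 9.73% ± 1.40 of cases, against 26.5% ± 4.51 for TE_00000762 (SD, n = 8 chromosomes), lower on 8 of 8 chromosomes (exact permutation, adjusted p = 0.0137). Against other Gypsy families, at 9.62% ± 1.15, the difference of 0.114 percentage points did not pass the test (exact permutation, adjusted p = 0.942). When only Gypsy copies were searched for the nearest neighbour, that difference was 3.43 percentage points and passed (exact permutation, adjusted p = 0.0122). In most cases, therefore, the nearest annotated element belonged to a different entry.

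Element sequence was denser around the family than around its comparators. Element copies other than the copy itself, of the same family included, covered a median of 79.0% ± 4.63 of the 10 kb on each side of a TE_00001068 copy, against 60.3% ± 5.44 for other Gypsy copies and 73.2% ± 4.01 for TE_00000762 (SD, n = 8 chromosomes). The family was higher on 8 of 8 chromosomes in both comparisons (exact permutation, adjusted p = 0.0137 each). On single chromosomes the family's value lay between 70.8% on chromosome 1 and 84.7% on chromosome 4. These flanks include the copy's own neighbours in the arrangement described above. Over the flank bases outside copies of the same family, cover was 72.4% ± 4.85, against 58.6% ± 5.49 for other Gypsy copies (exact permutation, adjusted p = 0.0156) and 67.7% ± 5.08 for TE_00000762, a difference that no longer passed (4.71 percentage points; exact permutation, adjusted p = 0.0851). In flanks from 5 to 15 kb away, which lie beyond that arrangement's median span, cover was 67.2% ± 6.59, against 47.2% ± 6.08 for other Gypsy copies (exact permutation, adjusted p = 0.0156) and 61.2% ± 6.22 for TE_00000762 (exact permutation, adjusted p = 0.0486).

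Density differed between autosomes. Chromosome 1 had 9.38 copies per Mb (287 copies), the lowest of the 8. Chromosomes 8, 3 and 7 had 16.9, 17.0 and 18.1 copies per Mb, and chromosomes 2, 6, 5 and 4 had 21.9, 24.6, 24.9 and 26.2, chromosome 4 holding 706 copies. The share of the chromosome covered by the family was 1.33% on chromosome 1 and 3.62% on chromosome 4. A chromosome gives a single value, so neighbours in this order were not tested against each other.

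Within chromosomes the copies were unevenly spread. Over 211 windows of 1 Mb the median was 14 copies, 9 windows had 0 and 54 had at most 5. The 22 windows with most copies held 1472 (35.8% of the family), while the 22 fullest windows of TE_00000762 and of other Gypsy copies held 34.5% and 19.9% of theirs. The window with most copies was chromosome 4 from 15000001 to 16000000, with 145 copies and 36 genes. Chromosome 5 from 1000001 to 2000000 had 129 copies and 68 genes, and chromosome 2 from 22000001 to 23000000 had 95 copies and 51 genes. The median number of genes was 70 in the 22 fullest windows and 92 over all windows.

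Over the 203 full windows, the number of TE_00001068 copies ran with that of TE_00000762 (Spearman's rho 0.736, Pearson's r 0.819) and of other Gypsy copies (rho 0.670, r 0.836), and against the number of genes (rho −0.358, r −0.535). Neighbouring windows are not independent and share element density, so these values are descriptions. The copies' median distance to the nearer chromosome end was 22.5% ± 4.53 of the chromosome's length, against 25.3% ± 1.41 for other Gypsy copies and 22.4% ± 2.85 for TE_00000762 (SD, n = 8 chromosomes). Neither difference passed the test (exact permutation, adjusted p = 0.175 and 0.945), and on 5 of 8 chromosomes the family lay nearer the ends than other Gypsy copies.

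**Figure D4:**
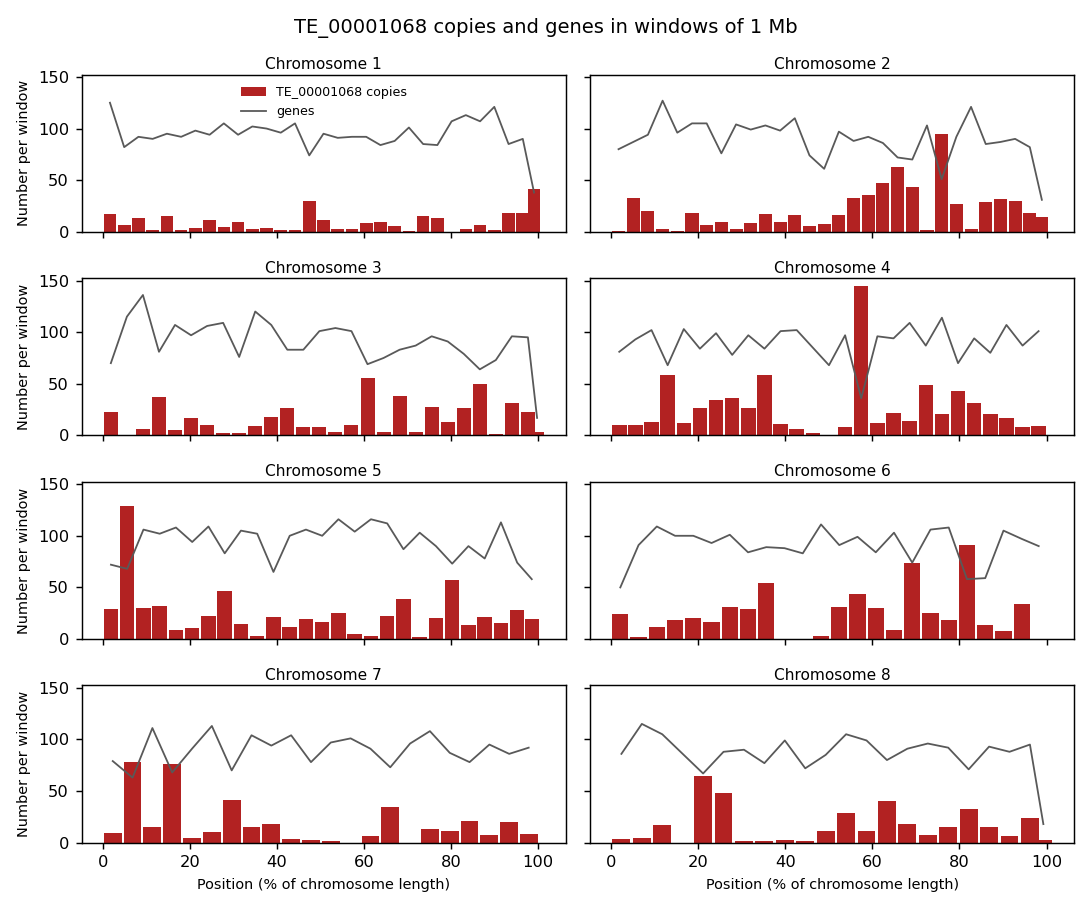
Number of TE_00001068 copies and of genes per 1 Mb window along chromosomes 1 to 8 (y axis, count, bars for copies and lines for genes; x axis, position as a percent of chromosome length, the last window of each being shorter). Copies concentrate in a few windows, up to 145, and 54 of 211 windows have at most 5.

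TE_00001068 copies lay farther from genes than other Gypsy copies did. The median distance to the nearest gene was 12787 ± 1801 bp, against 7810 ± 1051 bp for other Gypsy copies (SD, n = 8 chromosomes), a difference of 4977 ± 1212 bp that was positive on 8 of 8 chromosomes (exact permutation, adjusted p = 0.0137). Against TE_00000762, at 10350 ± 1561 bp, it was 2436 ± 1821 bp and positive on 7 of 8 (exact permutation, adjusted p = 0.0243). By chromosome, the family's median ranged from 10431 bp on chromosome 1 to 15433 bp on chromosome 6. Pooled over copies, 18.7% of the family lay within 5 kb of a gene, against 34.2% of other Gypsy copies and 24.2% of TE_00000762 copies, and 295 copies (7.17%) lay more than 50 kb from any gene, against 3.29% and 4.86%. Gene distance and element cover are readings of the same neighbourhoods and are not separate evidence.

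Copies seldom touched a gene. Only 9 of 4116 (0.219%) overlapped a gene span, against 225 of 19668 other Gypsy copies (1.14%) and 6 of 1666 TE_00000762 copies (0.360%). By chromosome the share was 0.231% ± 0.277, lower than the 1.16% ± 0.315 of other Gypsy copies on 8 of 8 chromosomes (SD, n = 8; exact permutation, adjusted p = 0.0137). It was not shown to differ from the 0.343% ± 0.591 of TE_00000762 (exact permutation, adjusted p = 0.942). A further 71 copies (1.72%) lay within 1 kb of a gene without overlapping it, 28 upstream of its start and 43 downstream of its end. Of the copies outside genes, 49.5% lay upstream of their nearest gene, between 45.0% on chromosome 6 and 57.8% on chromosome 7. On the strand of that gene were 49.7%, with 59.2% on chromosome 1 (170 of 287 copies) and 46.8% to 51.5% on the other autosomes.

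Of 19105 autosomal genes, 7 overlapped a copy, all of them protein coding, and 5 of these had family sequence in exons, 518 bp in all. Mp8g09450 (chromosome 8, 10905657 to 10919079, plus strand) held most, 4123 bp, in introns: copies of 3332 and 791 bp on the minus strand, the gene's opposite. Mp4g18760 (chromosome 4, 21072016 to 21086271, minus strand) held 1369 bp in introns, in copies of 354 and 1015 bp. These 4 were the autosomal copies that overlapped introns alone.

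The exonic overlaps were short and lay at gene ends. Mp7g03040, a gene of a single merged exon (chromosome 7, 3858429 to 3863515, plus strand), shared its last 320 bp, 6.29% of its exonic length, with a copy of 3521 bp. Mp2g05020 (chromosome 2, 5218255 to 5218998, minus strand), called MpLAR-like2 in the RefSeq table, shared 74 bp (16.1%) with a copy of 793 bp. Mp6g06420 (chromosome 6, 6836529 to 6837279, plus strand), which also flanks the run of 9 copies, shared 69 bp (15.8%) with a copy of 806 bp. Mp8g15340 and Mp2g05470 shared 47 and 8 bp.

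The 5 longest copies measured 3921 to 4054 bp, and all 5 had TE_00000846_LTR at their 3′ end. The longest (chromosome 4, 15377989 to 15382042, minus strand, 4054 bp) lay 4.33 kb from Mp4g13580, and another (chromosome 4, 15255884 to 15259815, plus strand, 3932 bp) lay between Mp4g13540 and Mp4g13550, 171 and 102 kb away; both fall in the window with most copies. The others were on chromosome 8 (4466869 to 4470840, 3972 bp), chromosome 2 (19535957 to 19539907, 3951 bp) and chromosome 4 (7357205 to 7361125, 3921 bp).

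Of 8 genes for DNA methylation that were looked up, the methyltransferases and the chromatin remodeller MpDDM1, none overlapped a copy of the family. Only 7 of all 19105 autosomal genes did, so no overlap among 8 genes does not set them apart. The closest to a copy was MpDNMT3b, a gene for a DNMT3-type methyltransferase, with one 26.0 kb upstream. MpMET, the gene disrupted in Mpmet-3 (Mp6g18180, chromosome 6, 20269397 to 20281226, minus strand), had its nearest copy 40.6 kb downstream, 1449 bp long (20227354 to 20228802). The distances were 132 kb for MpDRMb, 228 kb for MpDNMT3a, 242 kb for MpDRMa, 296 kb for MpCMTb, 469 kb for MpDDM1 and 525 kb for MpCMTa. Distances from all other genes to their nearest copy were not computed, so these are locations only.

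The family was sparser on the autosomes than on V. Autosomes had 19.9 ± 5.63 copies per Mb (SD, n = 8; 9.38 to 26.2), against 66.2 on V, which is 3.33 times the autosomal mean, and the family covered 2.79% ± 0.767 of an autosome, against 8.64% of V. These densities are a description, since copy number was part of the choice. All copies, those inside genes included, were also divided by the length outside genes alone. This gave 29.4 ± 7.57 per Mb on autosomes (SD, n = 8) and 111 on V, which is 3.78 times the autosomal mean. The difference of autosomes minus V moved to −81.8 from −46.3 copies per Mb. Since 117 of the 499 V copies lay inside genes, against 9 of 4116 on the autosomes, both the 111 and the ratio of 3.78 overstate V outside genes. The density of copies outside genes was not computed, so the rise of the ratio from 3.33 to 3.78 does not show a larger excess on V there. Other families were also denser on V: the ratio of V to the autosomal mean was 2.65 for other Gypsy copies and 3.15 for TE_00000762, and whether the ratios differ was not tested.

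Autosomal copies of TE_00001068 were nearly all outside genes, while 117 of the 499 V copies (23.4%) were inside one. All 117 lay wholly in introns, in 11 coding genes that held 162 kb of family sequence in all and 0 bp in exons. MpVg00525 held 44.9 kb in 35 copies, MpVg00105 37.2 kb in 27, MpVg00615 27.0 kb in 19 and MpVg01095 20.8 kb in 18. The spans of these genes were 421, 316, 502 and 487 kb, in that order, on a chromosome of 7.54 Mb. The share of V inside gene spans was not computed, so whether 23.4% is more or less than that share was not tested. The share of V copies inside genes was 27.8% for other Gypsy copies and 24.0% for TE_00000762, so it was near that of the family. V copies of TE_00001068 outside genes were a median of 32.7 kb from the nearest gene, and with those inside genes counted at 0 the median was 23.7 kb, above the highest autosome. Counted the same way, the comparators also lay farther from genes on V. The medians were 17.5 kb for other Gypsy copies and 16.3 kb for TE_00000762, against 7810 and 10350 bp on autosomes.

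Of the other measures tested, median length and element cover on V lay inside the autosomal range, and same-strand pairs and same-family neighbours lay outside it. With a single V chromosome 0.111 is the smallest p that an exact 2-sided permutation can give, so no contrast with V could pass 0.05. Same-strand pairs within 1 kb made up 81.0% ± 2.35 on autosomes (SD, n = 8) and 86.6% on V (exact permutation p = 0.111). The comparators were also higher on V, other Gypsy copies at 86.4% against 83.1% on autosomes and TE_00000762 at 87.5% against 73.5%. The nearest element was of the same family for 9.73% ± 1.40 of autosomal copies and for 6.01% on V (exact permutation p = 0.111). For other Gypsy copies this share was 10.6% on V against 9.62% on autosomes, and for TE_00000762 29.7% against 26.5%. Element cover around copies was 79.0% ± 4.63 on autosomes and 79.7% on V (exact permutation p = 0.889), inside the autosomal range.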

How the data were processed

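Per the labels' protocols the libraries are strand-specific poly(A) libraries. Trim Galore and STAR appear, without versions, in the submitters' processing notes; the counting step is not stated there. The values used are other than library measurements: the authors deposited gene and element annotations for MpTak1 v5.1 revision 2, and the unit is the start and end position of each feature in bp, counted from 1. EDTA is the source named in the element annotation, per the file headers and columns; its version and settings are not given. Reading TE_homo as homology-based is a reading of the identifier. The annotations carry 0 columns of library values, so depth and expression were not analysed here.

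Distances, gaps, cover and overlaps were computed in Python 3.11.15 (numpy 2.4.6, pandas 2.3.3, scipy 1.17.1; figures with matplotlib 3.10.9). A gene was the span of its exons; bases were merged before bp were counted. Chromosome length was the last annotated end. Paired comparisons used exact 2-sided sign-flip permutation over chromosomes, and V was tested by exact 2-sided permutation over 9 choices of chromosome. The sign-flip test was tried on simulated data, and for the V test only its smallest p was checked on them. Adjusted values below 0.05 were called. Chromosomes describe 1 annotated genome, so no p-value speaks of variation between plants. Gene symbols came from a RefSeq table of MpTak2 v7.1 by locus number with gene lengths within 5%, and no coordinates were taken from it. Alternatives were other flank widths and places, flanks without the same family, pair distances, length minimums, coding genes only, terminal-repeat entries only, and each chromosome left out.

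Members and lists were chosen with earlier results of these data known. Named were the 5 longest copies, the 5 runs with most copies, the 3 fullest windows, the genes holding most family sequence, genes flanking those runs, and the methylation genes; library entries and genes flanking the longest copies were named after their values had been seen, as were the 4 V genes. No sequence was read, since no genome was used.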

Additional observations from a re-analysis of the deposited data

Results flagged for a closer look

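For 12 measures of TE_00001068 the 8 autosomes were searched for a chromosome standing apart by Dixon's criterion, which sets the gap to the nearest value against the whole range; chance picks out about 1 group in 20, and 4 were found. The median copy length was 805 bp on chromosome 2 and 806 bp on the other autosomes, so the gap is the whole range (1.00) and amounts to 1 bp. Copies overlapping a gene made up 0.833% on chromosome 8, the highest autosome, with a gap of 0.631 of the range. That share rests on few copies, 2 in Mp8g09450 and 1 in Mp8g15340. Same-strand pairs within 1 kb made up 86.2% on chromosome 8, also the highest, with a gap of 0.555 of the range, and V was at 86.6%. Copies on the strand of their nearest gene made up 59.2% on chromosome 1, the highest autosome, with a gap of 0.619 of the range.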

How the results depend on the processing

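No paired analysis was possible because the annotations hold no library values, so replicate numbers of Mpmet-3 and wild type could not be used. Of 74 results recomputed under other settings, 66 kept direction and side of the threshold, 1 no longer passed it, 2 newly passed it and 5 changed sign. Part of the 66 was fixed beforehand, so that count overstates how stable the results are. Contrasts with V cannot give a p below 0.111, so they could not pass the threshold in any setting. Keeping terminal-repeat entries only left every difference from TE_00000762 at its main value. Of 112 results with a chromosome left out, 104 kept both direction and side, 1 newly passed and 7 changed sign. Same-strand pairs against other Gypsy copies (−2.12 percentage points) became +1.24 with copies of at least 200 bp, +3.80 with terminal-repeat entries only and −27.4 for pairs within 100 bp (adjusted p = 0.0137, exact permutation); against TE_00000762 the last gave −18.4. Leaving out the 600 to 800 bp gaps is part of that setting; for the others the cause was not tested. The same-family share against other Gypsy copies became −0.588 with terminal-repeat entries only, −1.18 without copies 50% inside a longer copy, and +3.43 when only Gypsy neighbours were searched (adjusted p = 0.0122, exact permutation). Element cover against TE_00000762 fell short of the threshold, at +4.71, outside copies of the same family; this setting and flanks from 5 to 15 kb away were chosen after seeing the data. Leaving out each chromosome gave −0.291 to 0.513 for that share, −3.28 (without chromosome 8) to −1.57 for same-strand pairs against other Gypsy copies, −0.173 to 0.0698 for copies in genes against TE_00000762 and −0.731 to 0.792 for relative position against TE_00000762; of these values only −3.28 passed the test. Length, gene distance, and element cover against other Gypsy copies kept their calls in every setting tried. The family has no inner-part entries, so the planned comparison on those gave no value. Fragments of an element are counted as separate copies, and gene distance depends on which genes are annotated.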

Other observations

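A further 216 homology copies of TE_00001068 lay on 127 unplaced sequences, with a median length of 806 bp, and entered no comparison. The family identifier was also carried by 5 structure-based annotations, 4 of them labelled Gypsy. Those labelled Gypsy were on chromosome 3 (3463198 to 3484770, 21573 bp, and 19448249 to 19459704, 11456 bp, both minus strand), chromosome 4 (20668178 to 20681267, plus strand, 13090 bp) and chromosome 6 (19256491 to 19269300, minus strand, 12810 bp). The other, of unknown superfamily and with no strand, was on chromosome 4 (23170082 to 23179959, 9878 bp). Each was longer than any homology copy of the family.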
